A study of Homo sapiens with 3 samples.

Results

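PC-3 cells carry RNA for every one of 10 genes that make up, restrain and report on the transcription factor NF-kB: the subunit genes RELA, RELB, REL, NFKB1 and NFKB2, the IkB inhibitor genes NFKBIA, NFKBIB and NFKBIE, and the feedback genes TNFAIP3 and BIRC3. The genes were chosen by name, and all 10 were found by Entrez identifier among 18331 identifiers in the deposited tables. PC-3 is an established human prostate cancer cell line, and the 3 libraries are polyadenylated RNA taken 7 days after infection with lentivirus that expresses short hairpin RNA (shRNA). Libraries 1 and 2 are labelled KMT2D shRNA1 and KMT2D shRNA2 (KMT2D shRNA below), with a genotype of KMT2D deficiency. The single control library is labelled control shRNA with a genotype of KMT2D normal. All 3 received a lentiviral hairpin, and no library of uninfected cells was analysed here. Neither the hairpin sequences nor whether 1 and 2 are different hairpins or separate cultures is stated. The p-values below therefore rest only on the spread between libraries 1 and 2, which may be technical or a difference between hairpins. That spread was pooled largely over all genes (1 residual and 45.7 prior degrees of freedom). The SE and p of a gene thus say little about how closely its own 2 libraries agree. The control has no replicate and no SD.

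NF-kB dimers form from RelA, RelB, c-Rel and the processed products of NFKB1 and NFKB2, and IkB proteins hold them in the cytoplasm. Receptors for tumour necrosis factor, interleukin 1 and microbial products activate IkB kinases, whose phosphorylation of IkB leads to its destruction and frees the dimers. Genes for IkB alpha (NFKBIA), the ubiquitin-editing enzyme A20 (TNFAIP3) and the ubiquitin ligase cIAP2 (BIRC3) are classic targets of the factor and feed back on it. PC-3 cells are known for NF-kB activity without added stimulus.

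Promoter sequences of the feedback genes are shown because these genes are known targets of NF-kB, which binds DNA at a short element, the kappaB consensus. Each sequence is the 250 bases before the RefSeq start site (build GRCh38.p14, read 5′ to 3′ along the gene's strand), with matches to the kappaB consensus of 10 bases, on either strand, in capitals. The stretches are chr11:102317234-102317483 (plus strand) for BIRC3, chr14:35404750-35404999 (minus strand) for NFKBIA and chr6:137867009-137867258 (plus strand) for TNFAIP3.
BIRC3: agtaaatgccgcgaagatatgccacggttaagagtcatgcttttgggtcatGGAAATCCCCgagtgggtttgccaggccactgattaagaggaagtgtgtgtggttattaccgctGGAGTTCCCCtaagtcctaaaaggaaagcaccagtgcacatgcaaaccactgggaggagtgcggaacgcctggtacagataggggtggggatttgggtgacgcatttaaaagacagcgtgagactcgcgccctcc
NFKBIA: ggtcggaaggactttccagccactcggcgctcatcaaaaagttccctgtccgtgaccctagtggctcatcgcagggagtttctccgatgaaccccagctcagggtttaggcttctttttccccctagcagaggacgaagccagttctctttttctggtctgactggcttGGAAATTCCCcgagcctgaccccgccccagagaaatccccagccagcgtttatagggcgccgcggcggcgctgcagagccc
TNFAIP3: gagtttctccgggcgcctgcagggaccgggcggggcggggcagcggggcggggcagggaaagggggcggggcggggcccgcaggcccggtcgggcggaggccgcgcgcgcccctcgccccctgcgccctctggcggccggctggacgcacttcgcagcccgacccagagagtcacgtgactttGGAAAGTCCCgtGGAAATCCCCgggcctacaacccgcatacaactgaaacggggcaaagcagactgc
Counted from the start site, BIRC3 held 2 matches whose first bases lie at -199 and -135. NFKBIA held 1, at -81, and TNFAIP3 held 2 close together, at -67 and -55. Over windows that also take in the 50 bases after the start site, a gene counted if any of its windows held a match. By that count 7 of the 8 members in the RefSeq table held a match. The shares were 17.1% of the 11090 tested genes in that table and 13.3% of all 27305 genes in it. NFKB2, NFKBIB and REL, like NFKB1, were among the 7. In NFKB2, NFKBIB and REL some matches overlap on opposite strands, such as those at -47 and -46 in REL. RELA was the member without one, and RELB and NFKBIE were not in the table. The 7 with a match comprise 3 genes called lower in the labelled libraries (BIRC3, NFKBIA and NFKBIB) and 4 that did not pass the test, where 14.5% of all tested genes were lower. That split depended on the fit: NFKBIA and NFKBIB lost their calls and TNFAIP3 gained one in alternatives given below. A match to the consensus is a description of letters, not a measured binding site.

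The library labels were checked first. KMT2D, the gene targeted by the hairpins, was at 107 and 138 CPM (counts per 1000000 counts, scaled between libraries by TMM, edgeR's normalization) in labelled libraries 1 and 2 and at 100.1 CPM in the control. It was thus not shown to be lower (log2 fold change 0.29, SE 0.18, edgeR adjusted p = 0.227), though once the dependence of the ratios on transcript length was taken out (called length trend removed below) it turned to -0.58 (adjusted p = 0.0186). That was the only call for KMT2D in 10 alternative fits. With a trend with GC content removed as well, it did not pass (-0.48, adjusted p = 0.0736). KMT2D is 19432 bases long, against a median of 2962 over tested genes. Every direction below is for the libraries labelled KMT2D shRNA. Totals ran from 5123817 to 5559504 estimated counts per library. All 5 epithelial markers had counts, with sums of 836 and 881 CPM in the labelled libraries and 1432 CPM in the control, a gap whose part in the results was not tested. Most of each sum came from KRT8, KRT18 and KRT19. CDH1 alone was ordered the other way, at 17.8 and 18.5 CPM against 12.7 CPM, and neither it nor EPCAM passed the edgeR test. With the length trend removed only KRT18 of the 5 passed (-0.52, adjusted p = 0.0248). Of the androgen-responsive prostate genes, KLK2 and KLK3 were not listed, and those with counts summed to 57.9, 43.8 and 39.8 CPM, most of it TMPRSS2 (53.7, 41.0 and 35.8 CPM). Leukocyte markers summed to 23.9, 22.7 and 34.9 CPM with CD3E not listed, fibroblast markers to 374, 385 and 398 CPM, and endothelial markers to 19.3, 18.9 and 20.3 CPM with VWF not listed. The leukocyte sum was mostly LYZ (22.6, 19.7 and 32.9 CPM), with CD14 at 0, 4 and 4 counts. Nearly all of the fibroblast sum was COL1A1 (373, 385 and 397 CPM), with PDGFRB at 8, 1 and 1 counts and DCN at 1, 0 and 2. PECAM1 was the only endothelial marker with counts. The series text calls the profiles retinal, but the photoreceptor gene RCVRN was not listed, and the photoreceptor markers with counts summed to 15.1, 15.0 and 26.3 CPM. Most of that sum was CRX (11.85, 11.2 and 20.2 CPM). Interferon-induced genes stood apart in the control: 12 of 12 on a marker list were lower in the labelled libraries, with a summed level of 470.0 CPM in each against 12412 CPM in the control. Of all tested genes 14.5% were lower in the same edgeR test, and the list was chosen with earlier results of these data known. What part this state of the control library has in the NF-kB results was not tested.

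Across the 10 genes, 5 fell in the labelled libraries and 0 rose. The genes that fell were all 3 IkB inhibitors (NFKBIE, NFKBIB and NFKBIA), the subunit gene RELB and the feedback gene BIRC3. The other 5 genes, 4 of them subunits, did not pass the test. With trends of the ratios with both length and GC content removed, NFKBIB, NFKBIA and RELB lost their calls, and the genes called lower were NFKBIE (-0.78, adjusted p = 0.0377), BIRC3 (-1.66, adjusted p = 0.000413) and TNFAIP3 (-0.61, adjusted p = 0.0423), where 6.01% of all genes in that fit were lower and 6.43% higher. The call was an adjusted p under 0.05 in edgeR's quasi-likelihood test over 14016 genes, which called 14.5% of all tested genes lower and 16.5% higher. All 10 genes passed the filter on low counts, with 24 to 1281 counts per library. The median log2 fold change was -0.47 over the members and -0.01 over all tested genes. Both labelled libraries lay below the control for 8 members and above it for 2 (REL and NFKB1), whereas 42.8% of tested genes had both below and 41.5% both above. These are bulk libraries, so fewer cells that express a gene and less RNA per cell cannot be told apart.

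**Figure D1:**
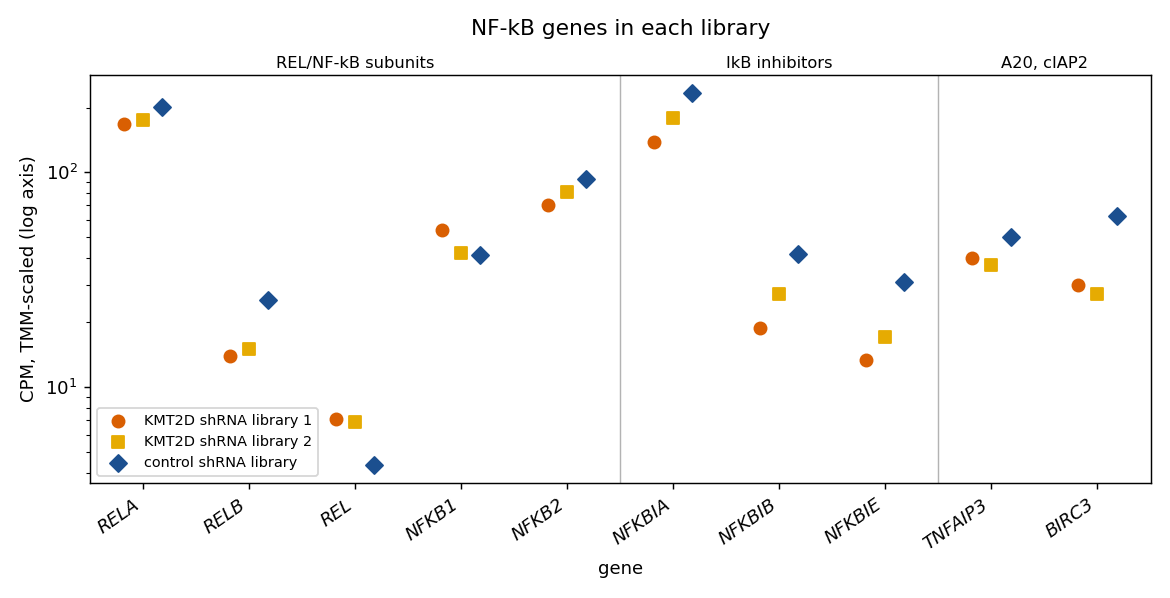
Level of each NF-kB gene in each library, in TMM-scaled CPM on a log axis; each point is 1 library and the genes are grouped by role. The control lies above both labelled libraries for all 3 inhibitors, RELB and BIRC3, and below both for REL.

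Of the subunit genes, RELB fell and the other 4 did not pass. RELA (Entrez 5970), which encodes the main activating subunit, had 167 and 175 CPM in libraries 1 and 2 and 201 CPM in the control. Both labelled values were under the control, but the difference did not pass (log2 fold change -0.23, SE 0.17, adjusted p = 0.303). NFKB2 (Entrez 4791), the precursor of the partner of RelB, had 70.7 and 80.6 CPM against 93.2 CPM. It was ordered like RELA and did not pass either (-0.30, SE 0.17, adjusted p = 0.194). NFKB1 (Entrez 4790), the precursor of the usual partner of RelA, had 53.9 CPM in library 1, 42.2 CPM in library 2 and 41.2 CPM in the control. Library 1 was the high one while library 2 sat beside the control, and the fold change was 0.22 (SE 0.20, adjusted p = 0.419).

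RELB (Entrez 5971), the activating subunit of the non-canonical pathway, was the subunit that fell. Its level was 14.0 and 15.0 CPM in the labelled libraries, resting on 73 and 76 counts, and 25.4 CPM on 140 counts in the control. The labelled libraries were close together and both well under the control. Their mean was 14.5 ± 0.724 CPM (SD, n = 2), and the log2 fold change was -0.81 (SE 0.23, adjusted p = 0.00582). The call ended with the length and GC trends removed (-0.45, adjusted p = 0.176), without a filter on low counts (adjusted p = 0.0571) and with DESeq2 (adjusted p = 0.333). REL (Entrez 5966), which encodes the lymphoid-enriched subunit c-Rel, was ordered the other way, at 7.07 and 6.90 CPM against 4.36 CPM. It rested on only 37, 35 and 24 counts, and library 1 stood at 1.62 times the control (95% counting interval 0.945 to 2.84), library 2 at 1.58 times (0.915 to 2.78). These intervals cover counting error only, and both include a ratio of 1. A difference in REL was not shown in the edgeR test (log2 fold change 0.68, SE 0.41, adjusted p = 0.214).

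The 3 IkB genes were lower in both labelled libraries, and by more in library 1 than in library 2. NFKBIE (Entrez 4794) encodes IkB epsilon and had 13.4 and 17.1 CPM in the labelled libraries against 30.7 CPM in the control. This was the largest fall among the inhibitors, with a labelled mean of 15.3 ± 2.66 CPM (SD, n = 2) and a log2 fold change of -1.01 (SE 0.22, adjusted p = 0.000482). For NFKBIB (Entrez 4793), which encodes IkB beta, the levels were 18.9 and 27.0 CPM against 41.6 CPM. The labelled mean was 23.0 ± 5.71 CPM (SD, n = 2), and the log2 fold change was -0.86 (SE 0.21, adjusted p = 0.00166). It was -0.60 (adjusted p = 0.0489) with the length trend removed, and the call ended with the length and GC trends removed (-0.48, adjusted p = 0.168), without a filter on low counts (adjusted p = 0.0787) and with DESeq2 (adjusted p = 0.205). An exon of NFKBIB overlaps SIRT2 on the opposite strand in GENCODE, and strand-marking is not mentioned in the protocol, so reads from the shared stretch cannot be told apart. SIRT2 itself was at 33.1 and 40.8 CPM against 27.2 CPM in the control, the opposite order to NFKBIB.

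NFKBIA (Entrez 4792), the inhibitor that is resynthesized after each activation, was the most abundant inhibitor by far. Its level was 138 CPM in library 1, 178.9 CPM in library 2 and 233 CPM in the control. Library 2 lay about midway between library 1 and the control. The log2 fold change was -0.55 (SE 0.17, adjusted p = 0.0116). This call ended with the length trend removed (-0.22, adjusted p = 0.414) and with library totals in place of TMM (-0.54, adjusted p = 0.0561). NFKBIA is short (1579 bases), and 200 tested genes of the closest length had a median of -0.32 on the log2 scale.

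Of the feedback genes, BIRC3 fell and TNFAIP3 did not pass. BIRC3 (Entrez 330), whose protein protects cells from death signals, had 29.8 and 27.2 CPM in the labelled libraries and 62.8 CPM in the control, from 156, 138 and 346 counts. The labelled libraries agreed closely, at 28.5 ± 1.85 CPM (SD, n = 2), and the control was over them by a factor of 2.20 (log2 fold change -1.14, SE 0.19, adjusted p = 7.16e-06). BIRC3 has a long transcript (6725 bases on average), and the 200 genes closest in length had a median of 0.43 on that scale. With the length trend removed its log2 fold change was -1.56 (adjusted p = 1.54e-07). The deposited length of BIRC3 was 6932 bases in both labelled libraries and 6311 in the control, so its FPKM also carries a difference in the estimated mix of its transcripts.

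TNFAIP3 (Entrez 7128) had 39.9 and 36.9 CPM against 49.95 CPM in the control. Both labelled libraries were lower, but the difference did not pass (log2 fold change -0.38, SE 0.19, adjusted p = 0.129). Removing the length trend brought a call (-0.62, adjusted p = 0.0187). The 200 genes of similar length to TNFAIP3 had a median log2 fold change of 0.25. With that trend removed 5 members were lower and 0 higher, TNFAIP3 in place of NFKBIA, where 8.97% of all tested genes were lower and 9.5% higher.

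**Figure D2:**
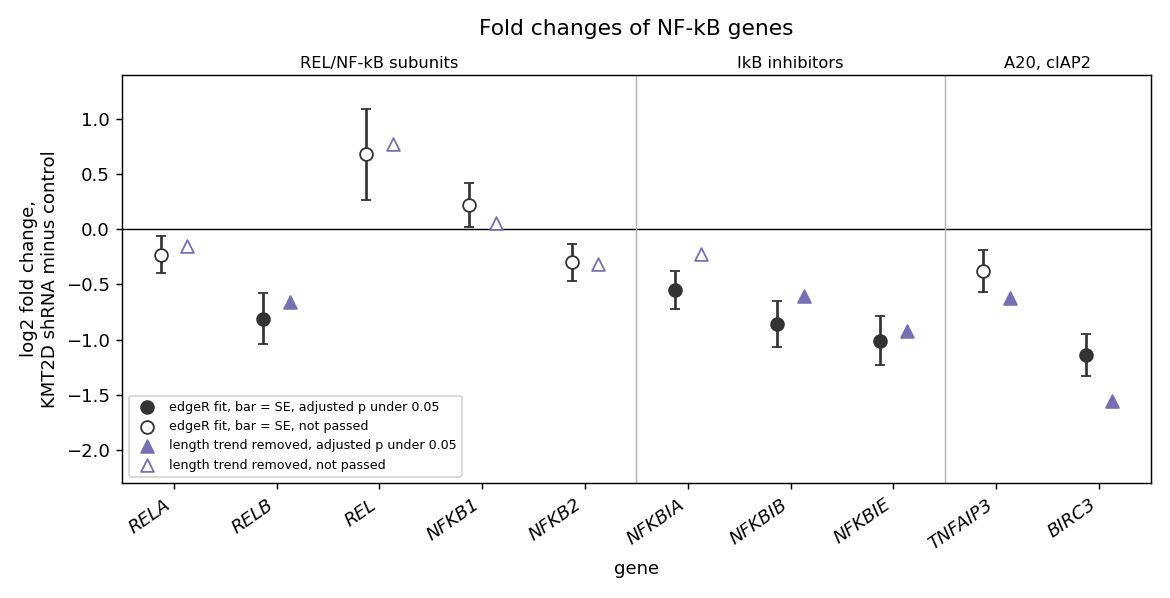
Log2 fold change (KMT2D shRNA minus control) of the 10 genes from the edgeR fit (circles, bar = SE) and with the length trend removed (triangles); filled symbols passed an adjusted p under 0.05. BIRC3, NFKBIE, NFKBIB and RELB are filled in both, NFKBIA only in the first and TNFAIP3 only in the second.

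The labelled libraries were not alike for every gene. The ratio of library 2 to library 1 was 1.30 for NFKBIA (95% counting interval 1.17 to 1.43), 1.43 for NFKBIB (1.09 to 1.87) and 0.782 for NFKB1 (0.652 to 0.938). For the other 7 genes the interval included 1. In these counts library 1 was lower than library 2 for those inhibitors and higher for NFKB1. The intervals cover counting error only and were not adjusted for the number of genes. The share of all tested genes with such an interval was not computed, so no trait of these genes can be read from it.

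Levels between genes were compared per length, with the deposited FPKM (fragments per kilobase of transcript, scaled to library size). NFKBIA was highest in every library, at 89.4 and 113 FPKM in the labelled libraries and 147 FPKM in the control. RELA followed with 65.6, 66.7 and 76.5 FPKM, then NFKB2 with 22.9, 25.3 and 29.7 FPKM, and REL was lowest in each library with 2.77, 2.65 and 1.67 FPKM. BIRC3 was next to lowest throughout. In between, the order depended on the library: in the labelled libraries NFKB1 and NFKBIB overlapped, as did RELB and NFKBIE, so these neighbours did not differ beyond their spread.

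RELA supplied about the same share of the summed subunit FPKM in every library, 59.2% and 60.0% in the labelled libraries and 59.5% in the control. The share of RELB was 5.57% and 5.81% against 8.50%, and that of REL was 2.50% and 2.38% against 1.30%. The subunit sum itself was 110.8 and 111.3 FPKM against 128.6 FPKM. Summed FPKM of the inhibitors was 105.2 and 134.6 against 179.3 in the control. Inhibitor RNA per subunit RNA was therefore 0.95 and 1.21 in the labelled libraries and 1.39 in the control, and the ratio of NFKBIA to RELA was 1.36 and 1.70 against 1.92. Both ratios were lower in each labelled library than in the control, a description without a test and of RNA, not of protein. FPKM keeps the length trend, and with that trend removed the log2 fold changes of NFKBIA and RELA were close together, at -0.22 and -0.15.

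**Figure D3:**
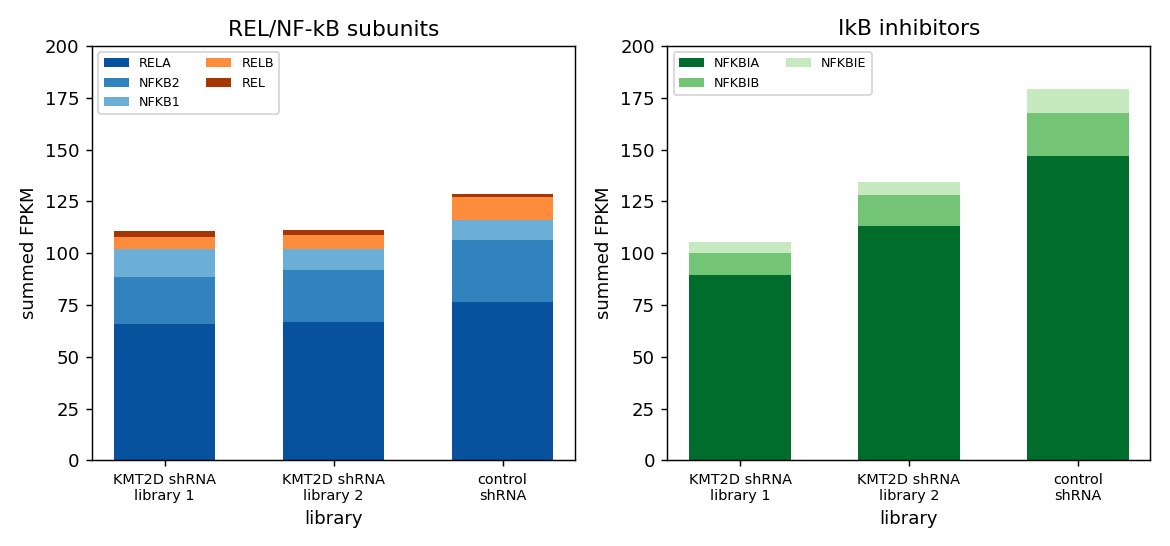
Deposited FPKM summed over the 5 subunit genes (left) and the 3 inhibitor genes (right) in each library, stacked by gene; the axes start at 0 and share 1 scale. The subunit sum is 110.8, 111.3 and 128.6 FPKM and the inhibitor sum 105.2, 134.6 and 179.3 FPKM.

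Upstream of these genes stand the receptors and adaptors of the pathway. Of 23 tested genes out of 25 on the list, 6 fell and 3 rose, where 14.5% of all tested genes were lower and 16.5% higher, their median log2 fold change being -0.32, against -0.01 over all tested genes. TLR3 and MYD88, a receptor for double-stranded RNA and the adaptor of interleukin 1 and most Toll-like receptors, fell by 2.44 (SE 0.51, adjusted p = 0.000244) and 1.51 (SE 0.18, adjusted p = 7.74e-09) on the log2 scale. TLR3 rested on 5, 10 and 44 counts. The tumour necrosis factor receptor gene TNFRSF1A fell by 0.45 and its adaptors TRADD and RIPK1 by 1.15 and 0.47, whereas the TWEAK receptor gene TNFRSF12A fell by 0.64. These calls near the threshold were not stable: TNFRSF1A passed in 0 of 10 alternatives (adjusted p 0.0523 to 0.44) and was at -0.28 in library 2 alone, and RIPK1 passed in 2 of 10 (0.0186 to 0.42). TRADD was at -0.59 (adjusted p = 0.112) with the length and GC trends removed. IRAK1, a kinase that MYD88 recruits, rose by 0.72 (SE 0.18, adjusted p = 0.00124), and MAVS and TRAF3, which act in sensing of viral RNA, rose by 0.70 and 0.64. With the length trend removed the calls of MAVS (0.03), TRAF3 (0.15), TNFRSF12A (-0.18) and TNFRSF1A (-0.28) were lost, and 4 genes were lower and 1, IRAK1, higher, against 8.97% and 9.5% of all tested genes.

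Among 26 kinases, ubiquitin enzymes and brakes, 8 fell and 2 rose, with a median log2 fold change of -0.19. Over all tested genes the shares were 14.5% lower and 16.5% higher, and the median was -0.01. All 3 genes of the linear ubiquitin chain assembly complex, which builds the chains that recruit the IkB kinases, fell. RBCK1 was at 118 and 128 CPM in the labelled libraries against 504 CPM in the control (log2 fold change -2.03, SE 0.16, adjusted p = 2.48e-14), SHARPIN was at -0.72 (SE 0.17, adjusted p = 0.000854) and RNF31 at -0.47 (SE 0.18, adjusted p = 0.0395). RNF31 was singled out after its values were seen, to complete the complex. With the length and GC trends removed RBCK1 passed (-1.77, adjusted p = 7.61e-05), but SHARPIN (-0.20, adjusted p = 0.359) and RNF31 (-0.39, adjusted p = 0.122) did not. Of the IkB kinase genes, the catalytic CHUK and IKBKB did not pass (-0.10 and -0.31), while the scaffold IKBKG fell by 0.53 (adjusted p = 0.0246), also outside the naming rule. IKBKG has a near-identical pseudogene, so its counts are uncertain. The related kinase IKBKE fell by 0.82 and TNIP1, which binds A20, by 0.72. BCL3, a nuclear IkB relative, fell by 0.76, and COMMD1, which limits RelA, by 0.70. The genes that rose were ITCH, a ligase that works with A20, by 0.62 and the adaptor TAB3 by 0.59. With the length trend removed 4 of the genes that fell passed (RBCK1, IKBKE, TNIP1 and RNF31) and 0 rose, against 8.97% and 9.5% of all tested genes. The lost calls were ITCH at 0.23, TAB3 at 0.16, SHARPIN at -0.44, IKBKG at -0.34, BCL3 at -0.50 (adjusted p = 0.0786) and COMMD1 at -0.18 (adjusted p = 0.678). COMMD1 passed in 1 of 9 alternatives.

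Target genes of the pathway include cytokines, chemokines and survival factors. Of 26 tested targets out of 29, 11 fell and 1 rose, with a median of -0.49, where 14.5% of all tested genes were lower and 16.5% higher and their median was -0.01. The chemokine gene CCL20 had 5 and 4 counts in the labelled libraries against 80 in the control (log2 fold change -4.02, SE 0.46, adjusted p = 1.57e-09). IL1A, an interleukin 1 gene, had 12 and 9 counts against 53 (-2.23, SE 0.44, adjusted p = 0.00011), and CSF1, the macrophage growth factor, fell by 1.62 (SE 0.25, adjusted p = 2.06e-06). IL6, CXCL8 and the transcription factor gene IRF1, itself induced by interferon, fell by 3.37, 1.39 and 1.75 on the log2 scale (adjusted p = 3.6e-15, 8.25e-09 and 3.88e-11). The remaining 5 that fell, named after their values were seen, were CSF2 (-1.55), GADD45B (-1.25), CXCL2 (-0.69), TNFAIP2 (-0.66) and BCL2L1 (-0.40).

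Several abundant targets, also named after their values were seen, did not pass. IL1B had 798 and 584 CPM against 629 CPM in the control, with library 2 below and library 1 above it (0.14, adjusted p = 0.582). CXCL1 was at 366 and 371 CPM against 327 CPM (0.17, adjusted p = 0.455), and ICAM1, an adhesion molecule, was at 374 and 317 CPM against 449 CPM (-0.38, adjusted p = 0.0754). CXCL1, CXCL2 and CXCL3 are near-identical copies whose reads the counting could have split. SOD2, the mitochondrial superoxide dismutase, was the target that rose (0.66, SE 0.21, adjusted p = 0.0122). Its level was 158 CPM in library 1, 90.8 CPM in library 2 and 78.6 CPM in the control, so the rise rests on library 1, and without that library its log2 ratio was 0.21. With the length trend removed 10 targets were lower and 2 higher, CXCL1 (0.60, adjusted p = 0.0113) and SOD2, against 8.97% and 9.5% of all tested genes. CXCL2 (-0.27, adjusted p = 0.33) and BCL2L1 (-0.30, adjusted p = 0.205) lost their calls there, and CFLAR, an inhibitor of death receptor signalling, gained one (-0.64, adjusted p = 0.00661).

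**Figure D4:**
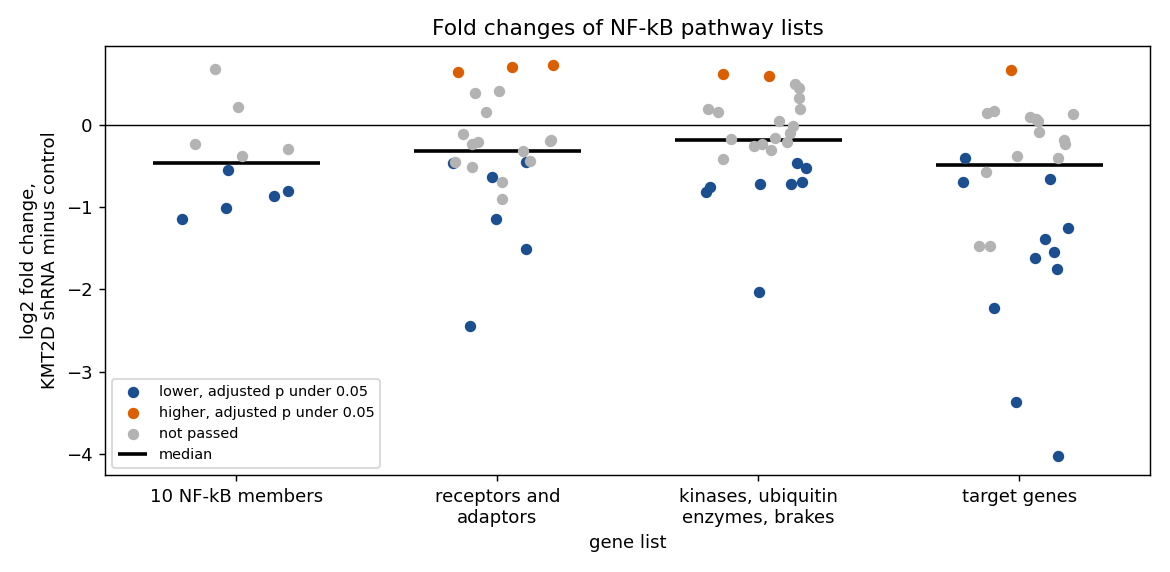
Log2 fold change (KMT2D shRNA minus control) of each tested gene on 4 lists; each point is 1 gene, blue and orange points passed the test and bars are medians. Medians are -0.47 for the 10 members, -0.32 for receptors and adaptors, -0.19 for kinases, ubiquitin enzymes and brakes, and -0.49 for target genes.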

How the data were processed

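Polyadenylated RNA of 3 PC-3 libraries was sequenced on a BGISEQ-500, per the labels' protocols. The submitters' processing notes name the build hg19 and the tools Bowtie2 and HISAT without roles or versions. The authors deposited expected counts per gene without normalization and FPKM, scaled by length and library total, per the file headers. A gene absent from a table was taken as 0. Entrez identifiers were named from RefSeq (GRCh38.p14, names only): 18214 of 18331 matched directly, 28 through a transcript and 89 not at all.

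Expected counts were rounded and fitted with edgeR 4.0.16 in R 4.3.3: default filter by group, TMM, quasi-likelihood F test, Benjamini-Hochberg adjustment over 14016 genes, threshold 0.05. The fit leaves 1 residual degree of freedom and used 45.7 prior degrees of freedom, with a common dispersion of 0.0119. SE comes from the F statistic, and ratios per library use log2 CPM with a prior count of 2. Counting intervals are exact binomial (95%). They cover counting error only, because reads without molecular identifiers are not independent molecules. A library total of 5157550, 5123817 or 5559504 counts makes 3 counts worth 0.573, 0.591 and 0.545 CPM. On simulated data for this comparison (13954 genes, 200 changed) 16.4% of the genes set at 1.5-fold passed, as did 73.1% at 2-fold and 98.5% at 4-fold, together with 1 gene left unchanged. The simulation used 1 dispersion for all genes and no trend with length or GC content. Its changed genes had a mean of 5 CPM or more. The real fit called 2319 genes higher and 2033 lower, so these rates cannot be carried over to it.

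Fold change followed transcript length (Spearman 0.456 and 0.46 across genes, which are not independent replicates), so splines of log2 length with 5 degrees of freedom, alone or with transcript GC content (GENCODE), were removed through offsets as alternatives. Others were DESeq2 1.42.0, DESeq2 size factors, library totals, other filters, and limma 3.58.1 on log2(FPKM + 1) or log2(FPKM + 0.1) with a mean FPKM of 1 or more, or none.

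The members and lists were chosen with earlier results of these data known. Genes named from a list are those past the threshold, at most 6 each way, ranked by the change in the less changed labelled library; any other is said to be so. Some marker genes are not reported here.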

Additional observations from a re-analysis of the deposited data

How the results depend on the processing

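Every member kept its direction in all alternatives in which it was tested. NFKBIE passed in 6 of 10 tests (adjusted p 0.000549 to 0.195), BIRC3 in 7 (1.54e-07 to 0.165), NFKBIB in 4 (0.00189 to 0.321), RELB in 4 (0.00629 to 0.333), NFKBIA in 2 (0.0133 to 0.49) and TNFAIP3 in 2. The cause of lost calls was not tested, apart from the length and GC fits. No paired analysis was possible because the control is 1 library without a replicate number. Without one or the other labelled library no test remains, and the members' median was -0.41 and -0.57.

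Against 5 members lower, the count was 2 without a filter on low counts, 3 with the length and GC trends removed, 1 with DESeq2 (BIRC3) and 0 in each of the 3 limma fits on FPKM. In each limma fit 4 of 10 members had an unadjusted p under 0.05. So had 4201 of 13301 genes on log2(FPKM + 1), 3877 of 13301 on log2(FPKM + 0.1) and 4576 of 18331 without a filter. In the edgeR fit 5 of 10 members had an unadjusted p under 0.05, all of them lower, beside 5711 of 14016 tested genes. Members that rose numbered 0 in every fit. Genes called higher and lower, 2319 and 2033 of 14016 tested, became 1048 and 849 of 18258 without a filter. They were 1331 and 1257 of 14016 with the length trend removed and 882 and 824 of 13709 with both trends removed. With DESeq2 they were 723 and 455 of the 9054 genes given an adjusted p. With limma they were 39 and 151 on log2(FPKM + 1), 14 and 56 on log2(FPKM + 0.1), and 0 and 0 without a filter. The share of calls that were higher was 53.3% in the edgeR fit, 61.4% with DESeq2 and 20.5% with limma on log2(FPKM + 1).

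Receptors and adaptors, 3 higher and 6 lower, became 1 and 3 without a filter, 1 and 4 with the length trend removed, 1 and 3 with both trends removed and 0 and 0 with each limma fit; 3 were lower at a mean of 5 CPM or more and 1 with DESeq2. Kinases, ubiquitin enzymes and brakes, 2 higher and 8 lower, became 0 and 4 without a filter, 0 and 4 with the length trend removed, 0 and 3 with both trends removed, 0 and 3 with DESeq2, 0 and 1 with limma on log2(FPKM + 1) and 0 and 0 with the other limma fits; 5 were lower with library totals. Target genes, 1 higher and 11 lower, became 0 and 4 with DESeq2, 0 and 1 with limma on log2(FPKM + 1) and 0 and 0 with the others. Their higher count was 0 with library totals, without a filter and at a mean of 5 CPM or more, and 2 with the length trend removed. DESeq2 gave no adjusted p for TLR3, COMMD1, CCL20, IL1A and CSF1, so their missing calls there are tests not made. The same holds for TLR3 and IL1A at a mean of 5 CPM or more.

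Directions that turned were those of KMT2D (-0.58 with the length trend removed and -0.48 with both) and TNFRSF12A (0.01 with both). REL rested on 24 to 37 counts, and the part of depth in its missing call was not tested.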
